A study of Mus musculus with 2 samples.

Results

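The 10 genes described here encode receptors of natural killer (NK) cells, 9 of the killer cell lectin-like receptor (Klr) family and Ncr1, taken by name out of the 16184 genes measured. All 10 were present in both libraries. They were followed in single CD45-positive lung leukocytes, in an NK gate and in T cell subsets set by detected Cd3e, Cd4, Cd8b1 and Trdc, gates in which no member was used.

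The mice were Scgb1a1cre /iDTR, in which airway club cells, the cells that use the Scgb1a1 promoter driving Cre, become sensitive to diphtheria toxin. One group received diphtheria toxin (DT) and the other PBS. Both groups bore lung tumours from 150000 HKP1 cells given by tail vein, and both received tamoxifen on days 3 to 7, 250 µg of anti-PD-1 antibody per mouse on day 6, and 4 Gy of radiation on each of days 10 to 12, with lungs taken 24 to 48 h later. The protocol text gives toxin (2 doses of 600 ng per 20 g, days 8 and 9) for both libraries alike, and the groups follow the titles and the design text. Each group had 4 mice and gave 1 library, and no label ties a cell to a mouse or gives age, so no spread between mice could be measured and no test between DT and PBS was possible. Every interval below is a 95% interval for counting error alone.

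NK cells read a balance of activating and inhibitory receptors on target cells, and most of these receptors lie in one gene cluster that is switched on gene by gene, so that neighbouring NK cells carry different sets. Klra4 (Ly49D) and Klra8 (Ly49H) are activating Ly49 receptors that signal through the adaptor Tyrobp, and Klra9 (Ly49I) is an inhibitory one. Klrd1 (CD94) pairs with Klrc2 (NKG2C) or with the inhibitory Klrc1 (NKG2A) to read the class I molecule H2-T23, Klrk1 (NKG2D) reads stress ligands through the adaptor Hcst, and Klrb1c (NK1.1) and Ncr1 (NKp46) mark mouse NK cells. Klre1 is a lectin-like partner receptor, and Klrg1 is an inhibitory receptor of late NK and T cells that binds cadherins.

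In the GENCODE annotation of GRCm38 (mm10), 9 members lay on chromosome 6 and Ncr1 lay on chromosome 7 (4337724 to 4345164, plus strand). From Klre1 (starting at 129577905) to Klra9 (ending at 130193112), 7 members fell within 615 kb, in the order Klre1, Klrd1, Klrk1, Klrc2, Klra4, Klra8 and Klra9. Klrb1c (128778485 to 128789215) and Klrg1 (122270596 to 122282882) lay outside that stretch. Start windows of RefSeq (GRCm38.p6, 250 bases before to 50 after the start) were at hand for 8 members, all but Klrd1 and Klrg1. Those of the 3 Ly49 genes are shown because their combinations in single cells are described further on. Capitals mark the runs of at least 12 letters held by all 3 windows, which are chr6:130067222-130067521, chr6:130129849-130130148 and chr6:130193063-130193362, all on the minus strand and written 5′ to 3′.
Klra4: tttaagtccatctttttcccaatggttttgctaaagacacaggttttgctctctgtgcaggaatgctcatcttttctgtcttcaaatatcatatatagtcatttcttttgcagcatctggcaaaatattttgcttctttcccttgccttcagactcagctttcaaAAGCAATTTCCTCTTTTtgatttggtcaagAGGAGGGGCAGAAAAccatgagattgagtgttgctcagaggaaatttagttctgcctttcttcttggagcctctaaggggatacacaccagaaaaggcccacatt
Klra8: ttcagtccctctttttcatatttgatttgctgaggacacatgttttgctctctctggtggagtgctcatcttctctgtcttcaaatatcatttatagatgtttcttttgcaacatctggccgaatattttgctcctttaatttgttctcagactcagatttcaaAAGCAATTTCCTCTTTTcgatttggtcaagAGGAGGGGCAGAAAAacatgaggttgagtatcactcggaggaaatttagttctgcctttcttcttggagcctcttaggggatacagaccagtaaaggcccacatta
Klra9: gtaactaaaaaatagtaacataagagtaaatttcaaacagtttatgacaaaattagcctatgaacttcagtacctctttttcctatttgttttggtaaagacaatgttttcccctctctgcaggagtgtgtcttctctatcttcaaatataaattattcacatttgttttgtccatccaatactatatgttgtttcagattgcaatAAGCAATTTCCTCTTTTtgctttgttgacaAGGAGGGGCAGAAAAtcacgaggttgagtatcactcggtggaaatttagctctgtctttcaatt
The 3 windows shared 2 such runs, the longer of 17 letters. Klra4 and Klra8 matched at 86.6% of 299 aligned bases, Klra4 and Klra9 at 77.0% of 235, and Klra8 and Klra9 at 82.5% of 234.

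The next pair is shown because Klrk1 was also detected in mononuclear phagocytes, at a higher share of cells than Ncr1. Capitals mark TGTGGT or its other strand ACCACA, the core word of the Runx factors, in chr6:129623815-129624114 (minus strand) and chr7:4337465-4337764 (plus strand).
Klrk1: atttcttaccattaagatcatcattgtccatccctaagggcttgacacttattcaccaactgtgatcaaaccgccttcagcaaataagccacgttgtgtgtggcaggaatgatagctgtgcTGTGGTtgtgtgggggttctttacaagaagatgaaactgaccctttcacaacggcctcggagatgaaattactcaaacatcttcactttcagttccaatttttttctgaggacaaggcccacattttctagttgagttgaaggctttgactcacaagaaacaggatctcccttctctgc
Ncr1: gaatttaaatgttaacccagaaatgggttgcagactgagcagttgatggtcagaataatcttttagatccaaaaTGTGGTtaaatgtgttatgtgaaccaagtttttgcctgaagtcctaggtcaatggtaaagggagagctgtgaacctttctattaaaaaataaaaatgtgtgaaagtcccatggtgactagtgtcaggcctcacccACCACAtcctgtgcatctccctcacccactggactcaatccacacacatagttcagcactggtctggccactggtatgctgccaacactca
The word stood in 5 of the 8 windows (Klrb1c, Klrc2, Klre1, Klrk1 and Ncr1), against 16.9% of 27025 RefSeq windows, and in none of the 3 Ly49 windows. GGTGTG or CACACC, a word of T-box factors, stood in 1 of the 8, that of Klra4, against 19.0% of all windows. No member's window held both words. A match here is a string of letters and not a measured binding site.

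The DT library held 6203 cells and the PBS library 5702, with 27896059 and 31089434 unique molecular identifiers (UMIs, counted RNA molecules) and median depths of 2909 UMIs per cell in DT and 3719 in PBS. In all, 8 barcodes occurred in both libraries. After filtering, 5896 DT cells and 5651 PBS cells remained. The libraries stood apart in the sex of their cells, read from Xist and 4 Y-linked genes: of the NK gate cells with a call, 29.6% were male-called in DT and 88.2% in PBS, and in the 4 T gates the shares were 15.2% to 22.4% in DT and 85.3% to 94.9% in PBS. Treatment and this difference between the pools cannot be told apart. Ratios within called cells were computed for the sums in the NK and T gates and for each member in NK cells. In T cells they were computed for Klre1 in CD8 T, Klrb1c in CD4 T and Klrg1 in Cd3e-only T cells only. They are given below where they turn a direction. Ratios of all other genes and gates were not split by sex, and whether their directions hold within called cells is not known. Scgb1a1, the club cell gene, stood at 10.9 CPM over all kept DT cells and 43.4 CPM over all kept PBS cells, both sorted for CD45.

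The NK gate took cells with Fcer1g, at least 3 of 8 cytotoxic and NK genes, and no UMI of 6 T cell genes. The 8 genes were Nkg7, Gzma, Prf1, Eomes, Txk, Il2rb, S1pr5 and Serpinb6b. Levels of these genes and of Fcer1g in the gate are thus partly set by the choice of cells. The NK gate held 193 DT cells, 3.27% of the library (2.83% to 3.76%), and 213 PBS cells, 3.77% (3.29% to 4.30%), a ratio of 0.868 (0.711 to 1.06). Its median depths were close, 3056 UMIs in DT and 3267 in PBS. Tyrobp and Ccl5, which the gate did not use, were found in nearly all of its cells. Tyrobp was detected in 99.0% of its DT cells and 97.2% of its PBS cells, and Ccl5 in 97.9% in DT and 98.1% in PBS. Neither is particular to NK cells. Tyrobp was also detected in 98.6% of DT and 98.9% of PBS neutrophils, and Ccl5 in 67.1% of DT and 84.5% of PBS Trdc T cells. The mast cell and basophil genes Mcpt8 and Gata2 had no UMI in either library. Of 4 markers of type 2 innate lymphoid cells, Il1rl1, Areg and Il13 had no UMI either, while Gata3, a factor that NK and T cells also use, was detected in 32.1% of DT and 41.8% of PBS cells. Of T cell genes outside the gate rule, Cd3g was detected in 2.07% in DT and 0.47% in PBS, and Trbc2 in 33.7% in DT and 35.7% in PBS. The 4 T cell markers Cd3g, Trbc1, Trbc2 and Lat summed to 663 CPM in DT and 631 CPM in PBS. Of this, Cd3g gave 6.16 CPM in DT and 1.05 CPM in PBS, and whether the sum came from T cells was not tested. RNA of neutrophil and phagocyte genes was present: 6 neutrophil markers summed to 3631 CPM in DT and 2587 CPM in PBS, and 7 phagocyte markers to 2191 CPM in DT and 2797 CPM in PBS. None of these markers was at 0. Their part in the results was not tested.

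The 10 genes were at their highest in the NK gate in both libraries, and they are described as 3 kinds by where else they were found. Together they made up 6501 CPM in DT and 6283 CPM in PBS (UMIs of a gene scaled to the summed UMIs of the gate), against 1626 CPM in DT and 1533 CPM in PBS in the Trdc T gate, 740 CPM in DT and 748 CPM in PBS in the Cd3e-only T gate, 507 CPM in DT and 558 CPM in PBS in the CD8 T gate, and 212 CPM in DT and 263 CPM in PBS in the CD4 T gate. Phagocytes held 133 CPM in DT and 92.9 CPM in PBS, neutrophils 62.6 CPM in DT and 81.6 CPM in PBS, and B cells 22.7 CPM in DT and 34.7 CPM in PBS. This order of the 8 gates was the same in DT and PBS, and the 2 libraries' ranges of neighbouring gates did not overlap. Of all UMIs of the 10 genes, the NK gate held 33.8% in DT and 34.6% in PBS, and cells that no gate took held 35.2% in DT and 31.5% in PBS. Levels are compared here over the 8 gates named, which leave out those cells and T cells with more than 1 of Cd4, Cd8b1 and Trdc.

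Klra4, Klra8 and Ncr1 were placed in the first kind, far below their NK gate level in the other 7 gates. The bound to the second kind is not sharp. Ncr1 reached 63.8 CPM in DT Trdc T cells, more than Klra9 of the second kind in any T gate (at most 21.5 CPM). Klra4 reached 808 CPM in the DT NK gate and 693 CPM in the PBS NK gate, and none of the other 7 gates passed 13.1 CPM in either library. Klra8 reached 510 CPM in DT and 453 CPM in PBS, with at most 28.8 CPM in those 7 gates. Cells that no gate took held a large part of these genes: 35.9% of Klra4 UMIs in DT and 38.8% in PBS, 37.7% of Klra8 UMIs in DT and 39.6% in PBS, and 34.2% of Ncr1 UMIs in DT and 33.2% in PBS. The NK gate held 57.3% of Ncr1 UMIs in DT and 59.0% in PBS. Ncr1 stood at 614 CPM in DT and 619 CPM in PBS, and its next gate, Trdc T, held 63.8 CPM in DT and 28.8 CPM in PBS from 18 and 11 UMIs in 4 and 3 cells. In the CD8 T gate, Klra4, Klra8 and Ncr1 had no UMI in 361 DT cells, which allows up to 1.19 CPM, and 1, 7 and 10 UMIs in 404 PBS cells. B cells, which should lack these genes, gave the background: Klra4 was detected in 0.11% of 950 DT B cells and 0.15% of 1330 PBS B cells.

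Klra9, Klrb1c and Klre1 formed the second kind, with a smaller presence in T cells, mostly those without Cd4 and Cd8b1 UMIs. Klra9, the inhibitory Ly49 gene, stood at 455 CPM in the DT NK gate and 412 CPM in the PBS NK gate, and its next gate by the mean of both libraries was Cd3e-only T at 17.6 CPM in DT and 21.5 CPM in PBS, from 16 of 360 DT cells (4.44%) and 21 of 428 PBS cells (4.91%). Klrb1c stood at 732 CPM in DT NK cells and 575 CPM in PBS NK cells, at 128 CPM in DT and 118 CPM in PBS in Trdc T cells, and at 65.6 CPM in DT and 63.9 CPM in PBS in Cd3e-only T cells. It was detected in 25.7% of DT and 36.6% of PBS Trdc T cells, against 1.94% of CD8 T cells in DT and 2.48% in PBS. Klre1 stood at 645 CPM in DT and 701 CPM in PBS in NK cells, 74.4 CPM in DT and 107 CPM in PBS in Trdc T cells, 70.0 CPM in DT and 76.4 CPM in PBS in Cd3e-only T cells, and 27.9 CPM in DT and 46.2 CPM in PBS in CD8 T cells.

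Klrd1, Klrc2, Klrk1 and Klrg1 formed the third kind, shared with T cells. Klrd1 was detected in 94.8% of DT and 91.5% of PBS NK cells, in 64.5% of CD8 T cells in DT and 68.3% in PBS, in 55.7% of Trdc T cells in DT and 70.4% in PBS, and in 13.6% of CD4 T cells in DT and 18.5% in PBS, against 1.05% of B cells in DT and 2.48% in PBS. Depth sets part of such shares. With every cell thinned to 1000 UMIs, Klrd1 was found in 59.1% of DT and 67.0% of PBS NK cells, in 26.9% of CD8 T cells in DT and 26.7% in PBS, and in 0.32% of B cells in DT and 0.61% in PBS. Klrc2 was detected in 86.0% of DT and 84.0% of PBS NK cells, and in 35.7% of Trdc T cells in DT and 62.0% in PBS. At 1000 UMIs its Trdc T shares were 20.3% in DT and 23.2% in PBS, where the unthinned cells had median depths of 3336.5 and 4578 UMIs. Klrk1 stood at 950 CPM in DT and 1071 CPM in PBS NK cells, 390 CPM in DT and 356 CPM in PBS in Trdc T cells, and 66.9 CPM in DT and 70.7 CPM in PBS in CD8 T cells.

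Klrg1 followed a different order from the other members. It was the least often detected in NK cells, in 25.9% of DT and 32.9% of PBS cells, and it had no UMI in the 70 DT and 71 PBS Trdc T cells, which allows up to 10.6 CPM in DT and 7.85 CPM in PBS. Its next gates were Cd3e-only T at 50.7 CPM in DT and 21.0 CPM in PBS, and CD4 T at 28.0 CPM in DT and 36.6 CPM in PBS, whose ranges overlapped.

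**Figure D1:**
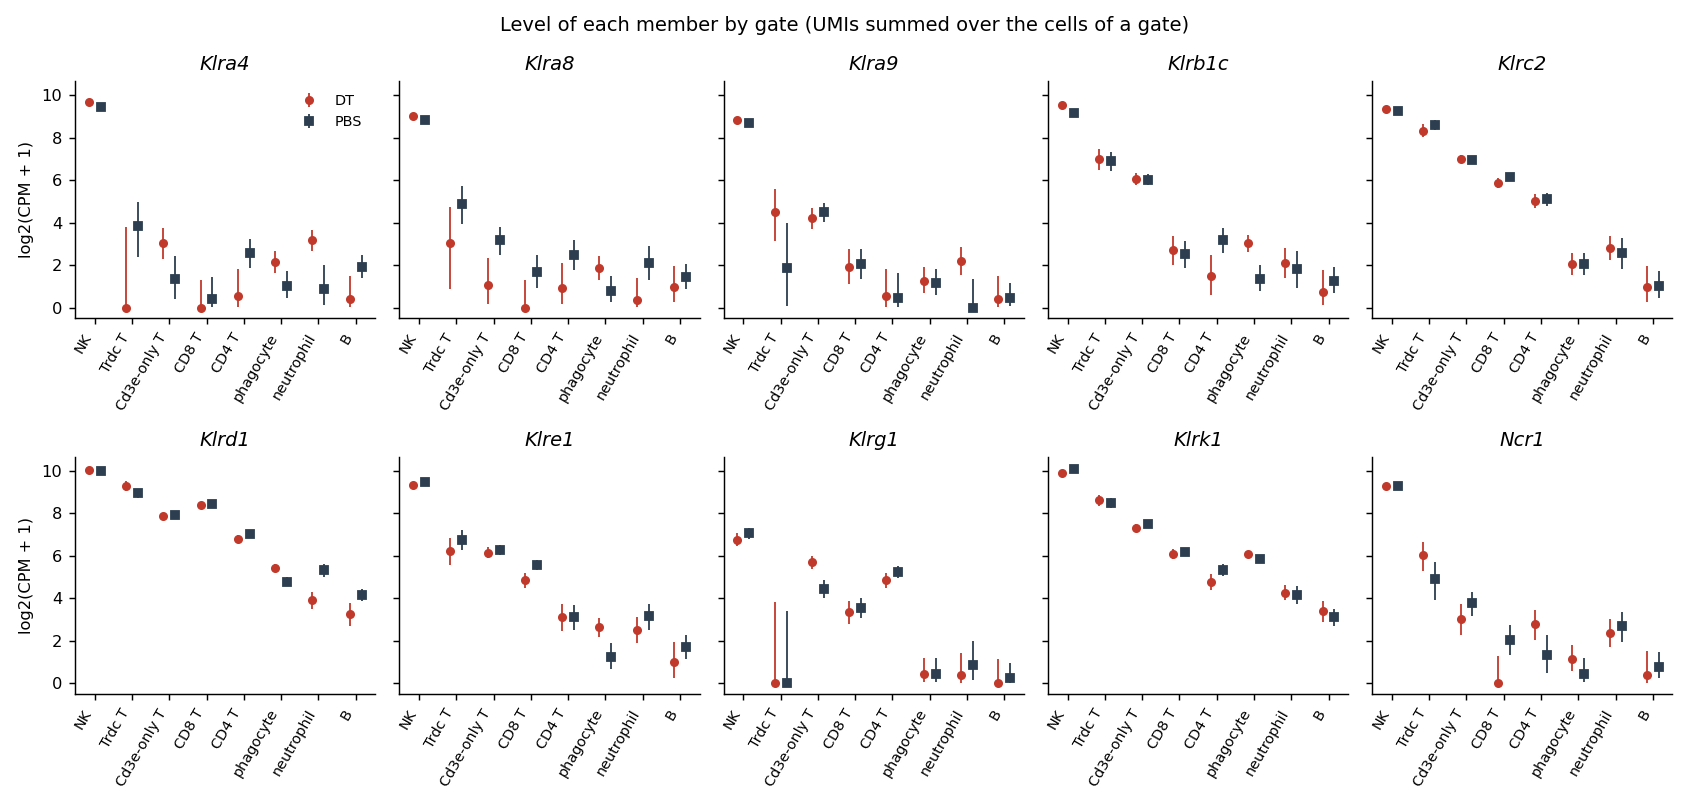
Level of each member in 8 gates, as log2(CPM + 1) of the UMIs summed over a gate's cells, with DT as circles, PBS as squares and lines for 95% counting intervals. All 10 panels peak in the NK gate, and Klra4 and Klra8 stay at or below 28.8 CPM in the other 7 gates. Klrc2 and Klrk1 step down through the T gates, while Klrd1 is higher in CD8 T than in Cd3e-only T cells.

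Whether club cell depletion changed these receptors was asked by setting DT over PBS within each gate. Over all cells of the NK gate, the sum of the 10 genes gave a ratio of 1.03 (0.997 to 1.07), and no member differed by 1.5-fold, a size that 6.36% of the 8334 genes with at least 20 UMIs exceeded upward and 5.77% downward. Of the members, 6 were higher in DT and 4 lower. Their median log2 ratio was 0.051, beside 0.00058 for all genes.

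Intervals without 1 were found for 2 members above it and 1 below it, where 5.21% of all genes lay above and 4.6% below. Klrb1c stood at 732 CPM in DT and 575 CPM in PBS, for a ratio of 1.27 (1.13 to 1.43), and was detected in 92.7% of DT and 84.0% of PBS cells (54.4% in DT and 46.4% in PBS at 1000 UMIs). Klra4 gave 1.17 (1.05 to 1.30), and Klrk1 gave 0.887 (0.807 to 0.975). With Trdc allowed in the NK gate, the log2 ratio of Klra4 fell from 0.22 to 0.039, below the lower bound of its interval (0.064). Those of Klrb1c (0.22) and Klrk1 (-0.24) stayed within their intervals under that gate.

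The remaining 7 members had intervals that held 1. Klra8 gave 1.13 (0.982 to 1.29), Klra9 1.10 (0.955 to 1.28), Klrc2 1.05 (0.932 to 1.19) and Klrd1 1.02 (0.930 to 1.12). Ncr1 gave 0.991 (0.878 to 1.12), Klre1 0.919 (0.818 to 1.03) and Klrg1 0.808 (0.608 to 1.07). Variation between mice adds an error that 1 library per group does not show.

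Within called cells several members passed 1.5-fold. No share over all genes was computed within called cells, so these counts cannot be read as particular to the members. Among male-called NK cells (32 DT, 90 PBS) the sum's log2 ratio was 0.52, against 0.049 over all cells. Klra8 stood at 1.02, Klra9 at 0.82, Ncr1 at 0.80 and Klrb1c at 0.63, all past 1.5-fold upward. Klrk1 stood at 0.24 and Klre1 at 0.15, so that Klrk1, Klre1 and Ncr1, which were below 0 over all cells, lay above 0 here, and Klrg1 alone was below 0 (-0.15). Among female-called NK cells (76 DT, 12 PBS) the sum was -0.46, with Klra4 past 1.5-fold upward at 1.31. Klra9 (-1.24), Klrg1 (-1.09), Ncr1 (-1.06), Klre1 (-0.87) and Klrc2 (-0.71) were past it downward, and Klrd1 stood at -0.45 and Klrb1c at -0.0059. The directions of Klra9, Klrc2, Klrd1 and Klrb1c thus turned among female-called cells, and the female-called values rest on 12 PBS cells.

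Of 20 other lectin-like receptors listed, 15 were in the tables and 10 had at least 20 UMIs in NK cells, 7 of them higher in DT and 3 lower, with a median log2 ratio of 0.31. Intervals lay above 1 for 6 of these 10 and below 1 for none, against 5.21% and 4.6% of all genes. None passed 1.5-fold. The highest was Klra1 (Ly49A) at 150 CPM in DT and 105 CPM in PBS (ratio 1.43, 1.09 to 1.88), and Klri2, a partner of Klre1, stood at 251 CPM in DT and 184 CPM in PBS (1.36, 1.11 to 1.68). The inhibitory NKG2A gene Klrc1 stood at 117 CPM in DT and 134 CPM in PBS (0.875, 0.664 to 1.15). Of 11 adaptor and signalling genes, none passed 1.5-fold: Tyrobp stood at 1956 CPM in DT and 1866 CPM in PBS, and Hcst at 412 CPM in DT and 423 CPM in PBS.

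Among 16 maturation genes, 9 were higher and 7 lower in DT, and the 2 past 1.5-fold were lower: Cd27, a marker of early NK cells, at 56.7 CPM in DT and 107 CPM in PBS (0.528, 0.364 to 0.755), and Ikzf2 at 25.9 CPM in DT and 46.3 CPM in PBS. The early factor Eomes stood at 203 CPM in DT and 144 CPM in PBS (1.41, 1.12 to 1.78), the late factors Zeb2 at 232 CPM in DT and 310 CPM in PBS (0.748, 0.620 to 0.902) and Tbx21 at 107 CPM in DT and 145 CPM in PBS (0.738, 0.558 to 0.972). Of 11 effector genes, none passed 1.5-fold, with Gzma at 11497 CPM in DT and 10352 CPM in PBS and Prf1 at 791 CPM in DT and 774 CPM in PBS. Eomes, Gzma and Prf1 are among the genes that set the NK gate, so its cells were chosen in part on them. Of 13 further NK receptors listed, 11 had enough UMIs, and Cd226 alone passed the fold, at 49.3 CPM in DT and 81.1 CPM in PBS. Of 9 genes of tissue-resident innate lymphoid cells, 8 had enough UMIs, with 1 past the fold upward and 3 downward, where 6.36% and 5.77% of all genes were. The higher one was Itga1, at 24.6 CPM in DT and 14.7 CPM in PBS (1.67, 0.803 to 3.58). The lower ones were Tmem176a at 51.8 CPM in DT and 105 CPM in PBS, Cxcr6 at 7.39 CPM in DT and 26.3 CPM in PBS, and Tnfsf10 at 14.8 CPM in DT and 27.4 CPM in PBS, the last with an interval that held 1. The Cxcr6 values rest on 6 UMIs in DT and 25 UMIs in PBS, from few cells, which are counted further on. Of 16 ligand genes listed, 6 had enough UMIs and none passed the fold, H2-T23 standing at 402 CPM in DT and 403 CPM in PBS.

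**Figure D2:**
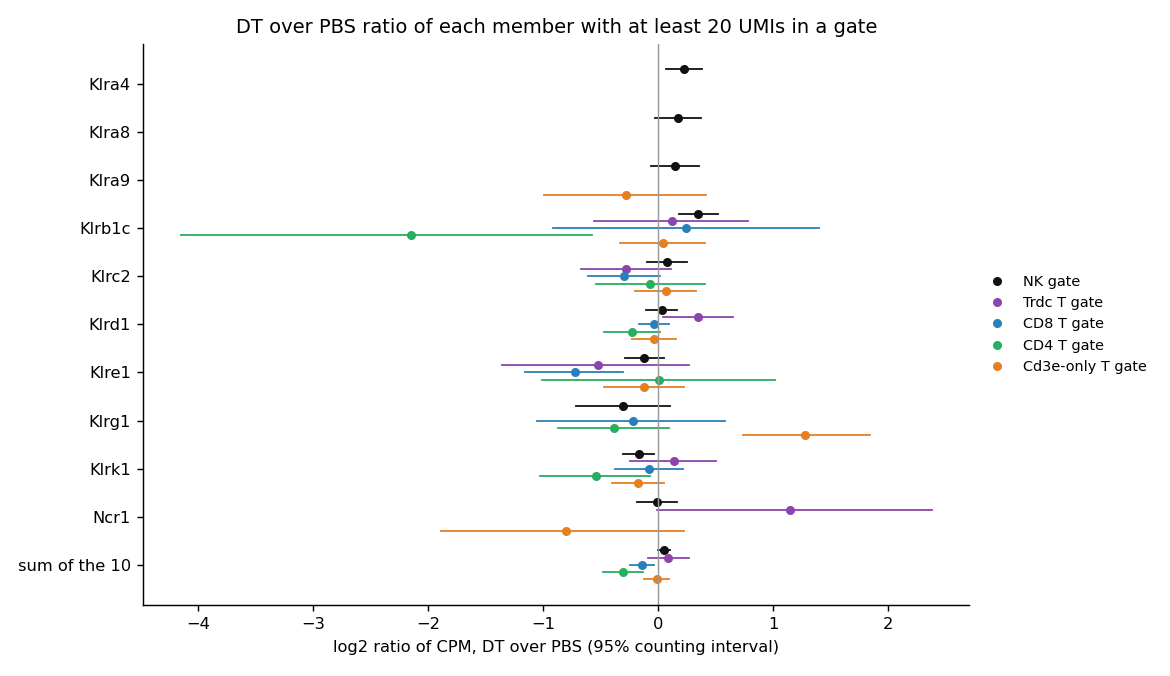
Ratio of CPM, DT over PBS, on a log2 axis with 95% counting intervals, for each member with at least 20 UMIs in a gate and for the sum. The NK gate points sit between 0.808 and 1.27 as ratios, while Klrg1 in Cd3e-only T cells and Klrb1c in CD4 T cells lie farthest from 0.

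In T cells, DT and PBS differed by 1.5-fold in 4 of the 26 member and gate pairs with enough UMIs, and no member did so in 2 gates. In the CD8 T gate (361 DT and 404 PBS cells), Klre1 stood at 27.9 CPM in DT and 46.2 CPM in PBS, for a ratio of 0.603 (0.447 to 0.807), where 2.25% of 11220 genes were lower by 1.5-fold and 2.29% higher. It was detected in 8.59% of DT and 13.1% of PBS cells, and in 1.94% in DT and 3.24% in PBS at 1000 UMIs. The difference fell under 1.5-fold without possible doublets (log2 ratio -0.29), when each cell counted once (-0.29) and with 20 CPM added (-0.47). Its log2 ratio of -0.64 became 0.38 among male-called cells (50 DT, 227 PBS) and 2.54 among female-called cells (173 DT, 26 PBS). The CD8 T sum gave 0.908 (0.845 to 0.977), and its direction also turned within both sexes, to log2 ratios of 0.0036 and 0.63. The 7 phagocyte markers summed to 888 CPM in DT and 1804 CPM in PBS in this gate.

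In the CD4 T gate (345 DT and 363 PBS cells) the sum gave 0.807 (0.716 to 0.909), and 1 of the 6 members with enough UMIs was higher in DT. Klrb1c was lower past 1.5-fold, with 4 UMIs in 4 DT cells and 21 UMIs in 10 PBS cells, as were 2.23% of 11215 genes, with 3.87% higher. With 20 CPM added its log2 ratio of -0.93 became -0.36, and among female-called cells it became 0.36. In this gate the 6 neutrophil markers summed to 2890 CPM in DT and 1237 CPM in PBS, and the 7 phagocyte markers to 1944 CPM in DT and 3811 CPM in PBS. Klrk1 stood at 26.6 CPM in DT and 38.9 CPM in PBS (0.685, 0.488 to 0.953). Among female-called cells (190 DT, 14 PBS) the sum's log2 ratio was 0.69, against -0.30 over all cells and -1.67 among male-called cells (34 DT, 206 PBS).

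In the Cd3e-only T gate (360 DT and 428 PBS cells) Klrg1 stood at 50.7 CPM in DT and 21.0 CPM in PBS, for a ratio of 2.42 (1.66 to 3.57), where 4.32% of 10605 genes were higher by 1.5-fold and 3.28% lower. It was detected in 34 DT cells (9.44%) and 20 PBS cells (4.67%), and at 1000 UMIs in 3.95% in DT and 2.60% in PBS, with overlapping intervals. Its log2 ratio of 1.10 became 2.76 among female-called cells (177 DT, 35 PBS) and -1.64 among male-called cells (33 DT, 203 PBS). The sum in this gate gave 0.990 (0.919 to 1.07). Here the neutrophil markers summed to 1561 CPM in DT and 2996 CPM in PBS, 4 B cell markers to 155 CPM in DT and 265 CPM in PBS, and the phagocyte markers to 2296 CPM in DT and 2273 CPM in PBS. Their part in these values was not tested.

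In the Trdc T gate (70 DT and 71 PBS cells) the sum gave 1.06 (0.937 to 1.20). Klrd1 stood at 624 CPM in DT and 492 CPM in PBS (1.27, 1.03 to 1.57), although 55.7% of DT and 70.4% of PBS cells held it. Ncr1, from 29 UMIs in all, passed 1.5-fold, as 12% of 4793 genes did upward and 9.95% downward, with an interval that held 1 (0.991 to 5.19). In this gate the phagocyte markers summed to 223 CPM in DT and 1374 CPM in PBS, and the neutrophil markers to 291 CPM in DT and 685 CPM in PBS.

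Single NK cells carried several of the 10 genes at a time. Without thinning, DT cells held a mean of 7.24 members (6.87 to 7.63) and PBS cells 7.01 (6.66 to 7.37), and all 10 were found in 7 DT and 11 PBS cells. At 1000 UMIs the means were 4.49 (4.19 to 4.80) over 193 DT cells and 4.47 (4.19 to 4.77) over 209 PBS cells, with 49.7% of cells holding 5 or more in DT and 53.6% in PBS. The difference of 0.013 members per cell had an interval of -0.404 to 0.431. The T gates held fewer at this depth: 2 or more members were found in 24.6% of DT and 23.2% of PBS Trdc T cells, 16.4% of Cd3e-only T cells in DT and 14.7% in PBS, 6.93% of CD8 T cells in DT and 5.74% in PBS, and 0.87% of CD4 T cells in DT and 1.38% in PBS.

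**Figure D3:**
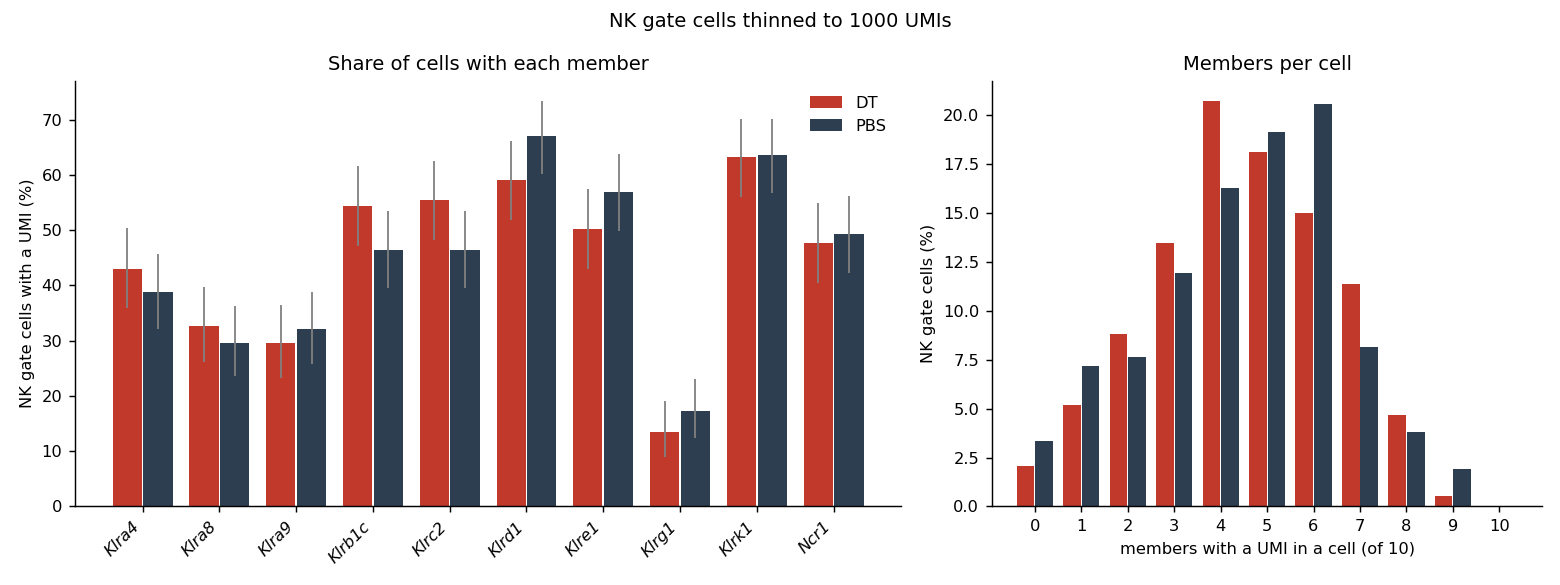
NK gate cells thinned to 1000 UMIs, DT left of PBS. The left panel gives the percentage of cells with a UMI of each member, with exact 95% intervals that overlap between DT and PBS for all 10. Klrg1 is lowest, at 13.5% in DT and 17.2% in PBS. The highest are Klrk1 in DT, at 63.2%, and Klrd1 in PBS, at 67.0%. The right panel gives the percentage of cells by number of members.

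Pairs of members were set against the number of cells that the 2 single shares would give if the genes were detected independently. Of 45 pairs, 36 in DT and 40 in PBS lay above that product, 34 of them in both libraries, and the median log2 of observed over product was 0.11 in DT and 0.15 in PBS. The pair farthest above was Klra9 with Klrg1, found together in 14 DT cells where the product was 7.68 and in 20 PBS cells where it was 11.5, with a log2 of 0.87 (-0.0047 to 1.61) in DT and 0.79 (0.082 to 1.42) in PBS. Klra4 with Klra8 was found in 39 DT cells against 27.1 and in 36 PBS cells against 24.0. Klra9 with Ncr1 was found in 38 DT cells against 27.2 and 45 PBS cells against 33.0. Its log2 intervals held 0, at -0.015 to 0.94 in DT and -0.0086 to 0.87 in PBS. At the low end, Klra4 with Klra9 lay just under its product, in 24 DT cells against 24.5 and 25 PBS cells against 26.0, as did Klra8 with Klrk1 (38 against 39.8 in DT, 37 against 39.4 in PBS) and Klra8 with Klrc2 (32 against 34.9 in DT, 26 against 28.8 in PBS).

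For the 3 Ly49 pairs, the log2 of observed over product was 0.53 (0.034 to 0.98) in DT and 0.58 (0.069 to 1.05) in PBS for Klra4 with Klra8. It was -0.031 (-0.67 to 0.54) in DT and -0.055 (-0.68 to 0.51) in PBS for Klra4 with Klra9, and 0.10 (-0.61 to 0.73) in DT and 0.15 (-0.53 to 0.74) in PBS for Klra8 with Klra9. The 3 intervals overlapped in each library, and the difference between pairs was not tested. At 1000 UMIs, Klra4 and Klra8 without Klra9 were found in 28 DT cells (14.5%) and 24 PBS cells (11.5%), and Klra4 and Klra9 without Klra8 in 13 DT cells (6.74%) and 13 PBS cells (6.22%). None of the 3 was found in 62 DT cells (32.1%) and 70 PBS cells (33.5%), where the product of the shares gave 52.2 and 61.2. Reads of near-identical copies could be shared between genes by the authors' counting: over the last 300 bases of the longest coding transcripts, where this 3′ assay reads, Klra9 was 98.7% identical to Klra3, and Klra8 was 97.6% identical to Klra10 over the 84 bases that aligned. Klra4 was 89.0% identical to Klra1 over 290 bases and 77.7% identical to Klra7 over 291. Values of all 3 Ly49 members are therefore uncertain between these copies. Klra4 and Klra8 shared 66.9%, and Klrc2 shared 58.7% with Klrc1.

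**Figure D4:**
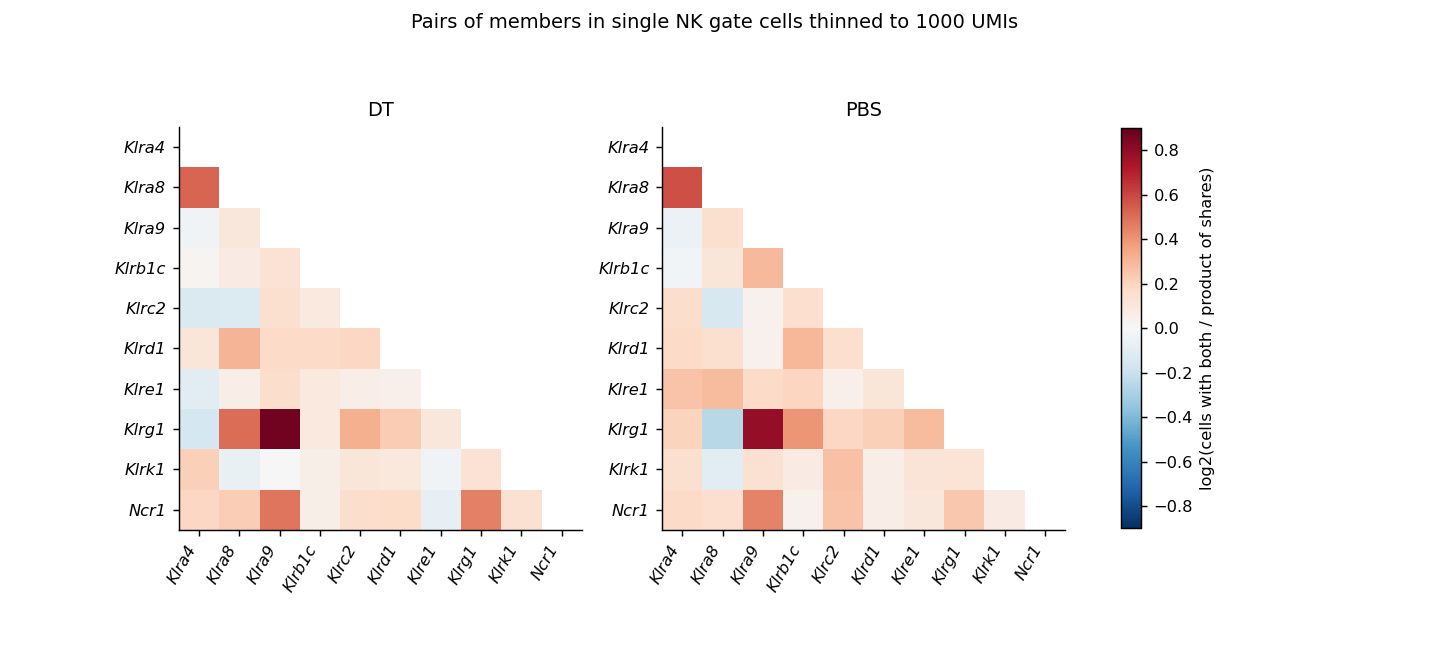
Log2 of the number of NK gate cells with both members over the product of their shares, at 1000 UMIs per cell, DT left and PBS right; red marks more cells than the product. Klra9 with Klrg1 and Klra4 with Klra8 are red in both panels, at 0.87 and 0.53 in DT and 0.79 and 0.58 in PBS.

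Cells with a given member differed from cells without it in other NK genes, and the same panel of 26 genes was read for 4 members. NK cells with Klrg1 (50 DT, 70 PBS) or with Klra9 (105 DT, 103 PBS) stood above the other cells in most of this panel in both libraries. The Klra9-positive cells were the shallower ones (median 2984 UMIs in DT and 3005 in PBS, against 3459.5 and 3629). Cma1, a protease gene, stood in Klrg1-positive cells at 374 CPM in DT and 378 CPM in PBS, against 86.9 CPM in DT and 77.3 CPM in PBS in the cells without Klrg1, ratios of 4.30 (2.98 to 6.24) and 4.89 (3.46 to 6.96). For Klra9 the Cma1 ratios were 5.12 in DT and 4.98 in PBS. S1pr5, a receptor used to leave tissues, was higher with Klrg1, at 4.12 times in DT and 2.45 times in PBS and with Klra9, at 2.25 times in DT and 2.43 times in PBS. Zeb2 was higher with Klrg1, at 3.00 times in DT and 1.95 times in PBS and with Klra9, at 1.93 times in DT and 1.79 times in PBS. Prf1 and Gzmb, which encode killing proteins, were also higher with Klrg1, Prf1 by 1.93 times in DT and 3.30 times in PBS and Gzmb by 2.16 times in DT and 2.12 times in PBS. Xcl1, a chemokine gene, was lower: 242 CPM in DT and 92.3 CPM in PBS with Klrg1, against 578 CPM in DT and 717 CPM in PBS without. In each of these 2 splits, 16 of 26 genes lay above 1 and 1 below 1 in both libraries by their intervals. The panel mixes members of the Klr family with maturation and effector genes and was written with the levels known, and no share over all genes was computed for these splits. It also holds S1pr5, Prf1, Gzma and Eomes, which are among the genes that set the NK gate.

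For NK cells with Klra4 (106 DT, 105 PBS), 9 of the 26 genes lay above 1 and 3 below 1 in both libraries. Some of them moved as with Klrg1: relative to the cells without Klra4, Prf1 stood at 1.49 times in DT and 1.36 times in PBS, Gzmb at 1.38 times in both DT and PBS, Gzma at 1.21 times in DT and 1.30 times in PBS, and Xcl1 at 0.50 times in DT and 0.533 times in PBS. Klra7 (Ly49G), an inhibitory Ly49 gene, stood at 517 CPM in DT and 439 CPM in PBS with Klra4, against 197 CPM in DT and 170 CPM in PBS without, ratios of 2.62 (2.01 to 3.45) in DT and 2.59 (2.00 to 3.37) in PBS; the part of reads shared between these 2 genes was not tested. Eomes was 2.28 times as high in DT and 2.03 times in PBS. Klrc1 was lower, at 65.8 CPM in DT and 105 CPM in PBS with Klra4, against 174 CPM in DT and 158 CPM in PBS without, and was found in 17 of 106 and 29 of 105 positive cells, against 44 of 87 and 41 of 108 of the others. Cxcr6, a gene of tissue-resident lymphocytes, was found in 0 of 106 DT and 1 of 105 PBS cells with Klra4, against 3 of 87 DT and 7 of 108 PBS cells without, and the intervals of these shares overlapped.

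For cells with Klra8 (104 DT, 103 PBS), 5 of the 26 genes lay above 1 and 1 below 1 in both libraries. Klra4 stood at 2.12 times the level of the Klra8-negative cells in DT and 2.15 times in PBS, and Klre1 at 1.26 times in DT and 1.30 times in PBS. Klra7 stood at 1.52 times in DT and 1.32 times in PBS, Klra3 at 1.51 times in DT and 1.79 times in PBS, and Tyrobp at 1.14 times in DT and 1.11 times in PBS. The gene below was Cxcr6, found in 0 DT and 1 PBS cells with Klra8. For Xcl1 the level was 0.236 times in DT and 1.49 times in PBS, while the share of cells with it was 21.2% of Klra8-positive against 36.0% of Klra8-negative cells in DT, and 29.1% against 34.5% in PBS. The difference between the libraries was not tested.

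**Figure D5:**
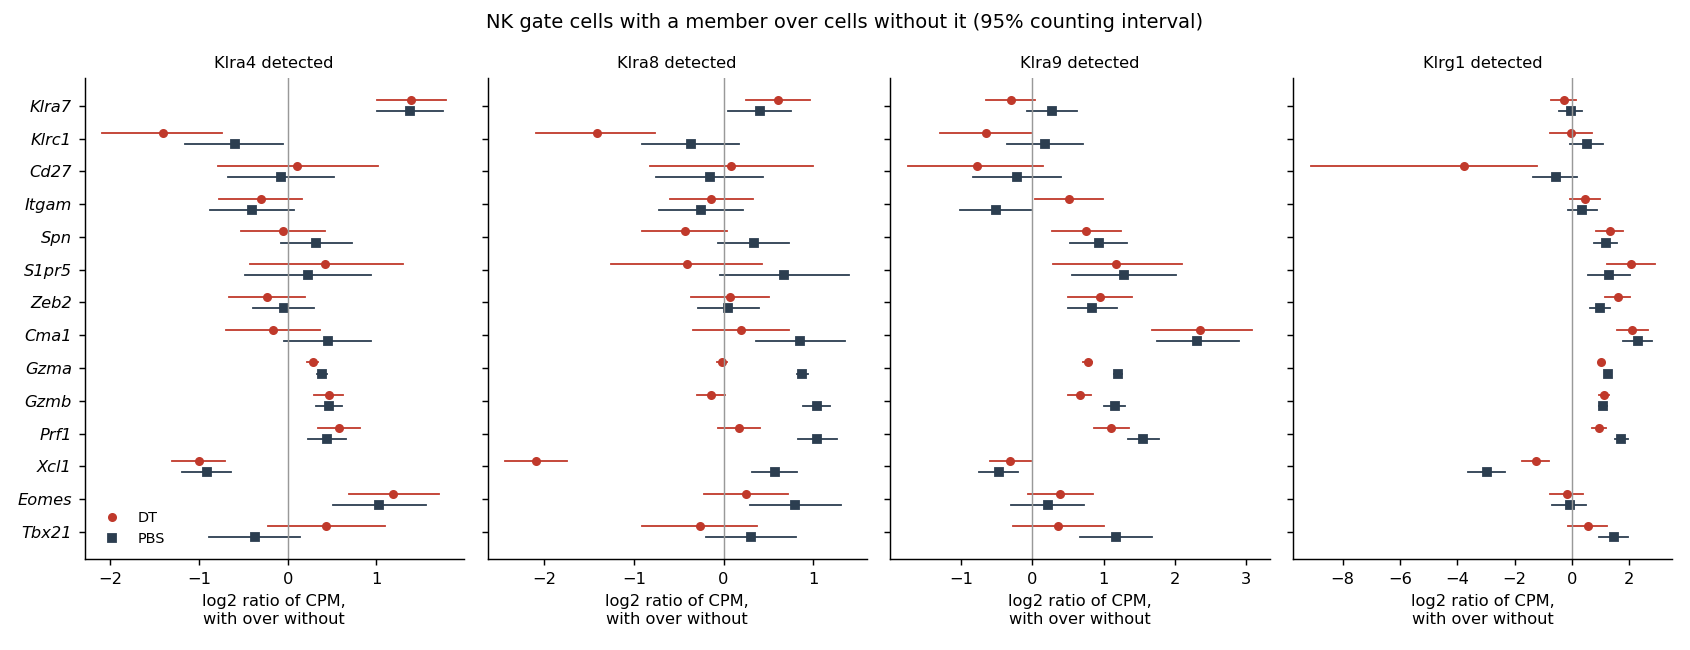
NK gate cells with a member over those without it, as log2 ratios of CPM with 95% counting intervals, for 14 of the 26 genes, DT as circles above PBS as squares; the x scales differ between panels. Cma1, Zeb2, S1pr5 and Spn lie to the right for Klra9 and Klrg1, and Klra7 and Eomes for Klra4.

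The same splits in T cells separated different subsets, with the caveat that positive cells were deeper. Klrg1-positive CD4 T cells (29 DT, 24 PBS; median depths 6725 and 8869.5 UMIs, against 4487.5 and 4502 in the others) held the genes of regulatory T cells. Foxp3, their defining factor, was found in 75.9% of DT and 79.2% of PBS positive cells, against 14.9% of the others in DT and 13.3% in PBS, at 298 CPM in DT and 224 CPM in PBS against 65.5 CPM in DT and 57.5 CPM in PBS. Relative to the others, Il2ra stood at 4.95 times in DT and 4.30 times in PBS, Ctla4 3.97 times in DT and 4.38 times in PBS, Ikzf2 3.20 times in DT and 2.85 times in PBS and Il1rl1, the receptor of interleukin-33, 5.09 times in DT and 3.71 times in PBS. Pdcd1 was lower, at 0.519 times in DT and 0.461 times in PBS.

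Klrd1-positive CD4 T cells (47 DT, 67 PBS) were of another kind. Foxp3 was found in 2.13% of DT and 7.46% of PBS cells with Klrd1, against 22.8% of those without in DT and 19.9% in PBS, although the positive cells were the deeper ones. They held more Ifng, at 407 CPM in DT and 218 CPM in PBS against 166 CPM in DT and 150 CPM in PBS, more Nkg7 (2.23 times in DT and 1.86 times in PBS) and more Klrk1 (7.51 times in DT and 8.60 times in PBS). The 2 receptors of CD4 T cells thus marked cells with more and with less Foxp3 than the remaining cells in both libraries.

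In CD8 T cells, those with Klrk1 (60 DT, 70 PBS) held other Klr genes and fewer naive-cell transcripts. Klre1 was found in 31.7% of DT and 52.9% of PBS cells with Klrk1, against 3.99% of the others in DT and 4.79% in PBS, and Klrc2 in 36 and 42 cells against 22 of 301 and 38 of 334. Among genes of naive and memory cells, Lef1 stood at 0.418 times the level of the other cells in DT and 0.272 times in PBS and Tcf7 at 0.526 times in DT and 0.519 times in PBS. Il2rb stood at 1.47 times in DT and 1.37 times in PBS and Pdcd1 1.93 times in DT and 1.62 times in PBS. Median depths were 6535 and 9971.5 UMIs with Klrk1, against 5372 and 5706.5 without.

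Trdc T cells with Klrc2 (25 DT, 44 PBS) held Klrk1 in 76.0% of DT and 75.0% of PBS cells, against 33.3% of those without in DT and 33.3% in PBS. Cd163l1 (Scart1), a gene of interleukin-17-type gamma-delta T cells, had no UMI in the DT cells with Klrc2 and was found in 4.55% of those in PBS, against 22.2% of the cells without in DT and 18.5% in PBS. Klrc1 was found in 52.0% of the Klrc2-positive cells in DT and 50.0% in PBS. Cd3e-only T cells with Klrb1c (57 DT, 65 PBS) held Klrd1 in 80.7% of DT and 78.5% of PBS cells, against 19.5% of the others in DT and 21.8% in PBS, Klrc2 in 77.2% in DT and 73.8% in PBS against 10.2% in DT and 12.9% in PBS, and Eomes in 14.0% in DT and 18.5% in PBS against 3.63% in DT and 3.58% in PBS. Trac was detected in 82.5% of DT and 84.6% of PBS positive cells.

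Klrk1 was also found in mononuclear phagocytes, in 23.8% of 659 DT cells (20.6% to 27.3%) and 20.7% of 638 PBS cells (17.6% to 24.0%), against 0.84% of B cells in DT and 1.35% in PBS. Phagocytes were deeper, with medians of 7947 and 8226 UMIs against 2520 and 2971 in B cells, but at 1000 UMIs the shares were still 4.57% in DT and 4.87% in PBS, against 0.11% of B cells in DT and 0.23% in PBS. Klrc2, Klrb1c, Klra4, Klra8, Klra9, Klrg1 and Ncr1 each stood below 2% of phagocytes in both libraries. Klre1 was found in 2.28% of phagocytes in DT and 0.94% in PBS, and Klrd1 in 7.44% in DT and 6.58% in PBS. Klrk1-positive phagocytes (157 DT, 132 PBS) held Klrd1 in 23.6% of cells in DT and 21.2% in PBS, against 2.39% of the others in DT and 2.77% in PBS, and more Cxcl9, a chemokine gene induced by interferon gamma, at 2807 CPM in DT and 3293 CPM in PBS against 1023 CPM in DT and 806 CPM in PBS. Gzma, a gene of killer lymphocytes, stood in them at 71.2 CPM in DT and 61.5 CPM in PBS, against 11.6 CPM in DT and 2.16 CPM in PBS, from 6 and 5 cells against 14 and 9; the part of NK or T cell doublets was not tested. Summed over the 10 genes, the phagocyte gate was higher in DT, at 133 CPM against 92.9 CPM in PBS (1.43, 1.28 to 1.60), with Klrd1 at 42.3 CPM in DT and 26.5 CPM in PBS and Klrb1c at 7.13 CPM in DT and 1.56 CPM in PBS from 13 and 5 cells. The sum was lower in DT in B cells (0.653, 0.489 to 0.862) and in neutrophils (0.767, 0.629 to 0.937). For these gates no share over all genes, no values within called cells and no values without possible doublets were computed.

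Over the 8 gates in both libraries, 16 points that share depth and gate composition, the 5 genes with the pattern most like the summed members were 1700025G04Rik (r = 0.974), Ccl5 (0.970), Padi2 (0.963), Dapk2 (0.963) and Gm33104 (0.960), among 2917 genes with enough UMIs. Ccl5 stood at 12971 CPM in DT and 14190 CPM in PBS NK cells, and at 2598 CPM in DT and 3480 CPM in PBS in CD8 T cells.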

How the data were processed

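Single-cell RNA of sorted live CD45-positive lung cells (10x Genomics 3′ assay) was measured, with 1 library per group. Values in the deposited tables are log2(CPM + 1), as seen from the values themselves. Partek, Seurat, STAR and the mm10 build are named in the submitters' processing notes, without their roles. The plan assumed UMI counts, so UMIs were recovered from the deposited log2 values (linear value over the lowest value above 0 of that cell); 100% came out whole within 1%. Kept cells had 200 genes or more, 500 UMIs or more and no more than 10% mitochondrial UMIs. UMIs were summed per gate and library and scaled to CPM. Log2 ratios, DT over PBS, had 5 CPM added, and genes needed 20 UMIs over both libraries; ratios printed without a log are of CPM as such. Ratio intervals are exact conditional binomial, shares Clopper-Pearson and sums Poisson, all at 95% and for counting error only; UMIs of a gene in 1 cell are not independent, so they are too narrow. A floor is 3 counts over a gate. Thinned shares used 1000 UMIs per cell (seed 1), leaving out shallower cells.

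T gates needed Cd3e and exactly 1 of Cd4, Cd8b1 and Trdc, or none (Cd3e-only T). Doublets were not called; an alternative left out cells with UMIs of at least 2 of 7 genes of other lineages. The steps were tested on simulated data. The named genes were the 10 members, the 3 highest and 3 lowest pairs, the 5 most similar genes and the listed groups; split panels were written after the levels had been seen. The members and lists were chosen with earlier results of these data known. Software was Python 3.11.15 with numpy 2.4.6, scipy 1.17.1, pandas 2.3.3, scanpy 1.11.5 and biopython 1.88. A result that needs an item withheld from this text is not reported here.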

Additional observations from a re-analysis of the deposited data

Results flagged for a closer look

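Klrb1c was set apart because its DT over PBS log2 ratio was 0.35 in the NK gate and -0.934 in the CD4 T gate, with intervals on opposite sides of 1. The CD4 T value rests on 4 UMIs in DT and 21 UMIs in PBS, the difference between the gates was not tested, and with 1 library per group it could not be.

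Cells outside every gate also carried the receptors. At least 3 of the 10 members were found in 166 DT cells and 159 PBS cells that no gate took. Of these, 143 in DT and 140 in PBS held a UMI of a T cell gene, with Trdc in 85 and 86 cells. Of the 166 DT and 159 PBS cells, 98 and 99 lay in the NK-like cluster. None held Cd3e, which the gates fix in advance: every cell with a Cd3e UMI was counted as a T cell. Its absence therefore does not tell whether these cells are T cells. The cells outside every gate are left out of the NK values above. With Trdc allowed, the NK gate held 264 DT and 286 PBS cells.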

How the results depend on the processing

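All values here are log2 ratios, DT over PBS. The summed members in the NK gate (0.049) changed sign, within a small range, when each cell counted once (-0.0073), with Trdc allowed (-0.026), in the NK-like clusters (-0.030) and without possible doublets (-0.022); the median over members (0.051) became -0.0082 with Trdc allowed, -0.044 in the NK-like clusters and -0.068 without possible doublets. Among male-called cells the NK sum was 0.52 and the median 0.53, and among female-called cells -0.46 and -0.61. The Trdc T sum (0.085) was -0.15 when each cell counted once and 0.65 among male-called cells. The CD8 T sum (-0.14) was -0.016 without possible doublets, 0.0036 among male-called and 0.63 among female-called cells. The CD4 T sum (-0.30) was -1.67 and 0.69 in the same order of sexes, and the Cd3e-only T sum (-0.014) was -0.23 and 0.54. The NK gate share (-0.20) was 0.25 among female-called cells. Single members that turned sign beyond the counting error of the reported value were, in NK cells, Klrk1 (0.24), Ncr1 (0.80) and Klre1 (0.15) among male-called cells, Klra9 (-1.24), Klrc2 (-0.71), Klrd1 (-0.45) and Klrb1c (-0.0059) among female-called cells, Klra8 (-0.062) in the NK-like clusters and Klra9 (-0.13) without possible doublets. In T cells they were Klrb1c in CD4 T cells (0.36, female-called), Klre1 in CD8 T cells (0.38 male-called, 2.54 female-called) and Klrg1 in Cd3e-only T cells (-1.64, male-called). The causes were not tested; female-called PBS cells number 2 in the Trdc T gate, and 12 to 35 in the other gates.

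Of 93 values for the sums, shares and per-cell results under the alternatives, 72 stayed within the counting error of the reported value. The added CPM, the scaling factors, the cell filters and the subtraction of free RNA changed none of the sums beyond it. Alternatives for 3 T cell members were chosen after seeing the data. No paired analysis was possible because each group is 1 library and the labels give no shared replicate numbers. Depth limits calls on Klra4, Klra8 and Ncr1 in T gates, where most counts are under 20 UMIs.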
